A study of Mus musculus with 27 samples.

Results

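The dorsal layer of the optic stalk was compared between Smarcc1-DCT-cKO mouse embryos (5 libraries, mutants 1 to 5) and control embryos (4 libraries, controls 1 to 4) at E14, across all genes. These 9 libraries, chosen by the region and genotype in their labels, are a part of 27, since a ventral piece and an axon-rich piece of the stalk were taken from the same embryos. In the mutants both alleles of Smarcc1 are floxed, and Cre recombinase under the promoter of the pigment cell gene Dct, active first in the dorsal stalk and in the presumptive retinal pigment epithelium (RPE), removes them. Controls are littermates without Dct-Cre, on the same C57Bl6/J background, and mutants may also carry the Z/EG reporter of Cre activity. The exact genotype of each embryo was not used here. The pieces were cut by laser from stained cryosections, so each library pools the RNA of all cells in its piece. In such material fewer cells of a type and less RNA per cell cannot be told apart. Per the labels, control 1 and mutants 1 to 3 belong to batch A, and controls 2 to 4 and mutants 4 and 5 to batch B.

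The optic stalk is the neuroepithelial tube that joins the eye cup to the forebrain. Its cells become the astrocytes of the optic nerve, while retinal ganglion cell axons grow along it towards the brain, and its dorsal layer runs on distally into the presumptive RPE. Smarcc1 (also called Baf155) is a core scaffold of SWI/SNF complexes, which move nucleosomes and so open or close enhancers and promoters. Pax6, Otx2 and Mitf are transcription factors of the RPE and retina, whereas Pax2, Sox9 and the NFI factors mark stalk cells on their way to astrocytes.

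Total counts ran from 10.9 to 24.05 M (M, 1e6) per library, and 10881 to 16266 genes had at least 1 count. At these totals 1 count equals 0.0416 to 0.0917 CPM (counts per M counts of the library, the unit of all levels here), and a gene with no count in a library can still lie at up to 3 counts. Reads carry no molecular identifiers, so this floor covers counting error only. Smarcc1 (ENSMUSG00000032481.17, chromosome 9, 110117708 to 110240178) stood at 116, 75.9, 289 and 97.2 CPM in controls 1 to 4 and at 94.9, 107, 2.26, 44.3 and 24.5 CPM in mutants 1 to 5. The dorsal libraries labelled mutant 1 and mutant 2 thus overlapped the controls, and the difference did not pass the test (log2 fold change -1.66 ± 0.99 SE, edgeR p 0.121; exact permutation p 0.103, two-sided). In the ventral pieces of mutants 1 and 2 Smarcc1 stood at 40.2 and 64.4 CPM, against 75.7 to 198 CPM in ventral controls. In their axon pieces it stood at 10.1 and 29 CPM, against 50.1 to 242 CPM in axon controls. Counts over the whole gene do not separate intact from recombined transcripts. The main results are therefore also given without the dorsal libraries of mutants 1 and 2. Control 3 had the fewest genes detected and the lowest summed level of the 16 melanin genes, 43.6 CPM against 5684 in the highest control. Xist, transcribed from the inactive X chromosome of females, was counted in mutants 1 and 5 and at 0 in the other dorsal libraries.

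In the mutant 1 gene was called higher (0.00619%) and 1 lower (0.00619%) of 16145 tested with edgeR, together 0.0124%. A call needed a log2 fold change beyond 0.58 in size and, after Benjamini-Hochberg adjustment, a p below 0.05. Before adjustment 864 genes had a p below 0.05 (5.35%), 432 of them higher (2.68%) and 432 lower (2.68%). That total is close to the share of 0.05 expected if no gene differed. The libraries of the genotypes did not overlap for 212 genes that were higher (1.31%) and 260 that were lower (1.61%). Of all tested genes 48.6% had a positive and 51.4% a negative fitted log2 fold change, and the counts over gene lists below are to be read against these shares. Members with an unadjusted p under 0.05 are to be read against 2.68% in each direction. Those without overlap are to be read against 1.31% higher and 1.61% lower. The median log2 fold change over all tested genes was -0.04. Among the 4037 genes with a mean of up to 3.33 CPM the median absolute log2 fold change was 2.71, and among the 4036 genes with 54.5 CPM or more it was 0.44, so fitted changes were smaller where counts were higher. The study's own tool, DESeq2, called 177 genes higher (1.1%) and 355 lower (2.2%) on the same counts, and both edgeR calls were among them. Because only these calls pass the edgeR test, all other genes below are given by their values and unadjusted p, as a description of the direction in which their libraries lay.

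**Figure D1:**
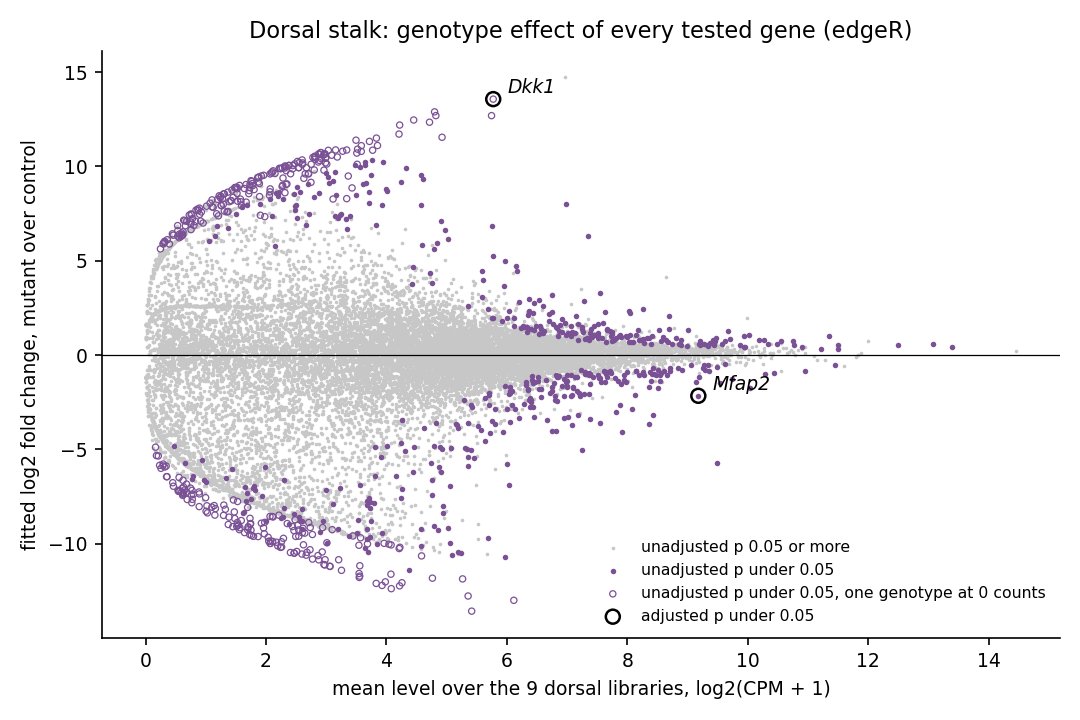
Fitted log2 fold change of each of the 16145 tested genes (y axis, mutant over control, edgeR with batch as a term) against its mean level over the 9 dorsal libraries (x axis, log2(CPM + 1)). Purple points are the 864 genes with an unadjusted p under 0.05, open ones those with 0 counts in all libraries of a genotype, whose fitted value depends on the prior count, and black rings mark the called genes, Dkk1 above and Mfap2 below. The spread of fitted values narrows from left to right.

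Dkk1 (ENSMUSG00000024868.8, chromosome 19, 30545863 to 30549665, mm10), a secreted inhibitor of canonical Wnt signalling that binds the LRP5 and LRP6 co-receptors, rose from no count to the level of a well-counted gene. It had 0 counts in controls 1 to 4 and stood at 77.3, 93.7, 128, 106 and 78.5 CPM in mutants 1 to 5. The mutant mean of 96.6 ± 20.9 CPM (SD, n = 5) was at least 560.1-fold higher than the floor of 3 counts per control library, with an edgeR adjusted p of 0.0346. The gene was at 0 in the 4 ventral controls and in 4 of 5 ventral mutants, with 18.7 CPM in ventral mutant 4, and at 0 in all 9 axon libraries. Over all 27 libraries it was thus counted in the 5 dorsal mutants and in 1 ventral mutant. Its adjusted p was under 0.05 in 7 of 20 other settings, DESeq2 and limma voom among them, and ranged from 1.95e-25 (DESeq2) to 0.668. Without mutants 1 and 2 the edgeR p was 0.00022 before adjustment and 0.366 after it, and 0 genes passed (549 had a p below 0.05 before adjustment).

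Mfap2 (ENSMUSG00000060572.17, chromosome 4, 141010418 to 141015984, mm10), a glycoprotein of the fibrillin microfibrils that scaffold elastic fibres and hold TGF-beta family ligands, fell in all mutants. It stood at 1176, 875, 969 and 1053 CPM in controls 1 to 4 and at 249.6, 176, 222, 179 and 302 CPM in mutants 1 to 5, with no overlap. The log2 fold change was -2.16 ± 0.23 SE, with an edgeR adjusted p of 0.0124 and an exact permutation p of 0.00794 (two-sided), the smallest p this test can give for 4 against 5 libraries. The permutation test ignored batch, and with the batches kept in the splits its smallest possible p is 0.025. As Mfap2 was picked by its edgeR p on the same libraries, the permutation p lends it no separate support. Without mutants 1 and 2 the log2 fold change was -2.09 (edgeR p 2.72e-05 before adjustment), and in batch B alone the edgeR p was 0.000333 before adjustment. Its adjusted p was under 0.05 in 12 of 20 other settings, DESeq2 among them, and ranged from 2.74e-12 (DESeq2) to 0.61.

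The sequence of 250 bases before a RefSeq transcription start of each called gene is shown. By the gene positions given above, the Mfap2 stretch lies inside the gene, as does part of the Dkk1 stretch with its marked words. Which start the counted RNAs used was not tested. Coordinates are on GRCm38.p6 and each sequence runs 5′ to 3′ on the strand of the gene. For Dkk1, chr19:30549497-30549746, minus strand, capitals mark a TCF/LEF-type word CTTTGTT, 98 bases before the start, and a TATA box TATAAA, 54 bases before it. For Mfap2, chr4:141010431-141010680, plus strand, 1 of 2 annotated starts, capitals mark 2 GC boxes GGGCGG, 51 and 7 bases before the start. The start shown is the first whose window holds this word. Searched on both strands of the same stretch of 32851 RefSeq starts, CTTTGTT occurred in 5.03%, TATAAA in 12.4% and GGGCGG in 32.7%. These are matches of letters, not sites of binding.
Dkk1: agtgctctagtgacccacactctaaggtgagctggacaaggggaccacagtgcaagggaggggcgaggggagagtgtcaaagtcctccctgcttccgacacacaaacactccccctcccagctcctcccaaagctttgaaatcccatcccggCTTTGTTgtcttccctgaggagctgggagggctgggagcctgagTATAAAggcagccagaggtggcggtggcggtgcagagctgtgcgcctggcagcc
Mfap2: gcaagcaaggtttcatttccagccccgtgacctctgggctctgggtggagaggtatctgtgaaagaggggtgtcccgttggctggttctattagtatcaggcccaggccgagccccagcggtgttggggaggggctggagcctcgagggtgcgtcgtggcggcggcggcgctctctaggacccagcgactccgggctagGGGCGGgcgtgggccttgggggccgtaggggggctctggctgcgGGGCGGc

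The 12 genes with the smallest p in each direction, these calls among them, make 24 genes, of which 23 had no overlap between the genotypes and 24 had the same direction in both batches, although batch A holds a single control. As they were picked by p in this comparison, these counts describe them and lend them no support. Without mutants 1 and 2, 24 of 24 kept their direction with an unadjusted edgeR p below 0.05. The libraries left in that fit were among those used to pick the genes, so this count lends no support either. After adjustment 0 genes passed in it. The genes Gpr143 and Slc25a5 lie on the X chromosome, and whether the sex of the embryos has a part in their values was not tested.

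Among the higher ones, Pax6, a master regulator of eye development, stood at 106, 39, 47.4 and 53 CPM in controls and at 227, 357, 291, 396 and 246 CPM in mutants (log2 fold change 2.27 ± 0.38 SE, edgeR adjusted p 0.104). Elovl4, which elongates very long chain fatty acids and is known from photoreceptors, stood at 6.49, 2.92, 1.06 and 2.22 CPM and 158, 117, 70.9, 85 and 112 CPM (log2 fold change 5.01 ± 0.79 SE, edgeR adjusted p 0.103). For both genes each mutant library lay above each control. Slc7a6, a transporter of basic and neutral amino acids, had a mean of 79 ± 14.4 CPM in controls (SD, n = 4) and 262 ± 42.6 CPM in mutants (SD, n = 5). Glul, glutamine synthetase, used by astrocytes and RPE cells to clear glutamate and ammonia, stood at 89.8, 42.2, 13.8 and 130.2 CPM in controls and 389, 370.3, 746, 290.0 and 272 CPM in mutants, without overlap. Slc25a5, the ADP/ATP carrier of the inner mitochondrial membrane, and Ndufb8, a subunit of respiratory complex I, differed less, with log2 fold changes of 1.08 ± 0.22 and 0.77 ± 0.18 (SE). Mif, a cytokine with tautomerase activity, had a log2 fold change of 1.02 ± 0.20 (SE), and Tmem199, a factor of the V-ATPase assembly, one of 1.93 ± 0.41 (SE). Dnajc1, a co-chaperone of the endoplasmic reticulum, stood at 13.5, 21.8, 18.1 and 41.3 CPM in controls and 226, 65.7, 114, 146 and 134 CPM in mutants. The keratin gene Krt18 was the only one of the 24 whose genotypes overlapped, through control 1 at 199 CPM and mutant 5 at 142 CPM.

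Among the lower ones, Ptn, pleiotrophin, a heparin-binding growth factor of the developing nervous system, stood at 1302, 1589, 2364 and 1910.0 CPM in controls and 157, 326, 274, 562 and 921 CPM in mutants (log2 fold change -1.76 ± 0.29 SE, edgeR adjusted p 0.103). Tgfb2, a TGF-beta ligand, stood at 345, 916, 384 and 391 CPM and 48.2, 73.5, 87.9, 147 and 120.4 CPM (log2 fold change -2.13 ± 0.34 SE, edgeR adjusted p 0.103). Control 2 held the highest level of Tgfb2 and mutants 4 and 5, both of batch B, the highest among the mutants. Dcn, decorin, a proteoglycan of connective tissue, spread widely among controls, at 176, 620.2, 1647 and 319 CPM, and stood at 39.1, 17.8, 11.9, 58.6 and 45.7 CPM in mutants. Epha4, a receptor of ephrins in axon guidance, stood at 313, 275, 221 and 235 CPM in controls and 62.1, 116, 57.4, 40.8 and 66.5 CPM in mutants. Itm2b, an integral membrane protein, varied little within a genotype, at 829.2, 801, 804 and 956 CPM in controls and 342, 334, 413, 356 and 417 CPM in mutants. The imprinted RNA H19 had a log2 fold change of -1.72 ± 0.34 (SE), and Rbms3, an RNA-binding protein, one of -3.66 ± 0.73 (SE). Kdelr3, a receptor that returns chaperones to the endoplasmic reticulum, stood at 102, 145, 61.5 and 66.9 CPM in controls and had 0 counts in every dorsal mutant, at least 437-fold lower. The other pieces of the mutants held it, with means of 18.5 CPM in ventral mutants (19.1 in ventral controls) and 56 CPM in axon mutants (14.8 in axon controls). Fam49a, a regulator of actin branching, stood at 65.9, 93.8, 51.9 and 85.7 CPM in controls and had 3 counts in all in the mutants, 2 in mutant 2 and 1 in mutant 5. In the ventral pieces the log2 fold change was -0.32 for Tgfb2, -0.34 for Epha4, -0.38 for Itm2b and 0.45 for Ptn, and no difference between the dorsal and the ventral effect passed the test.

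**Figure D2:**
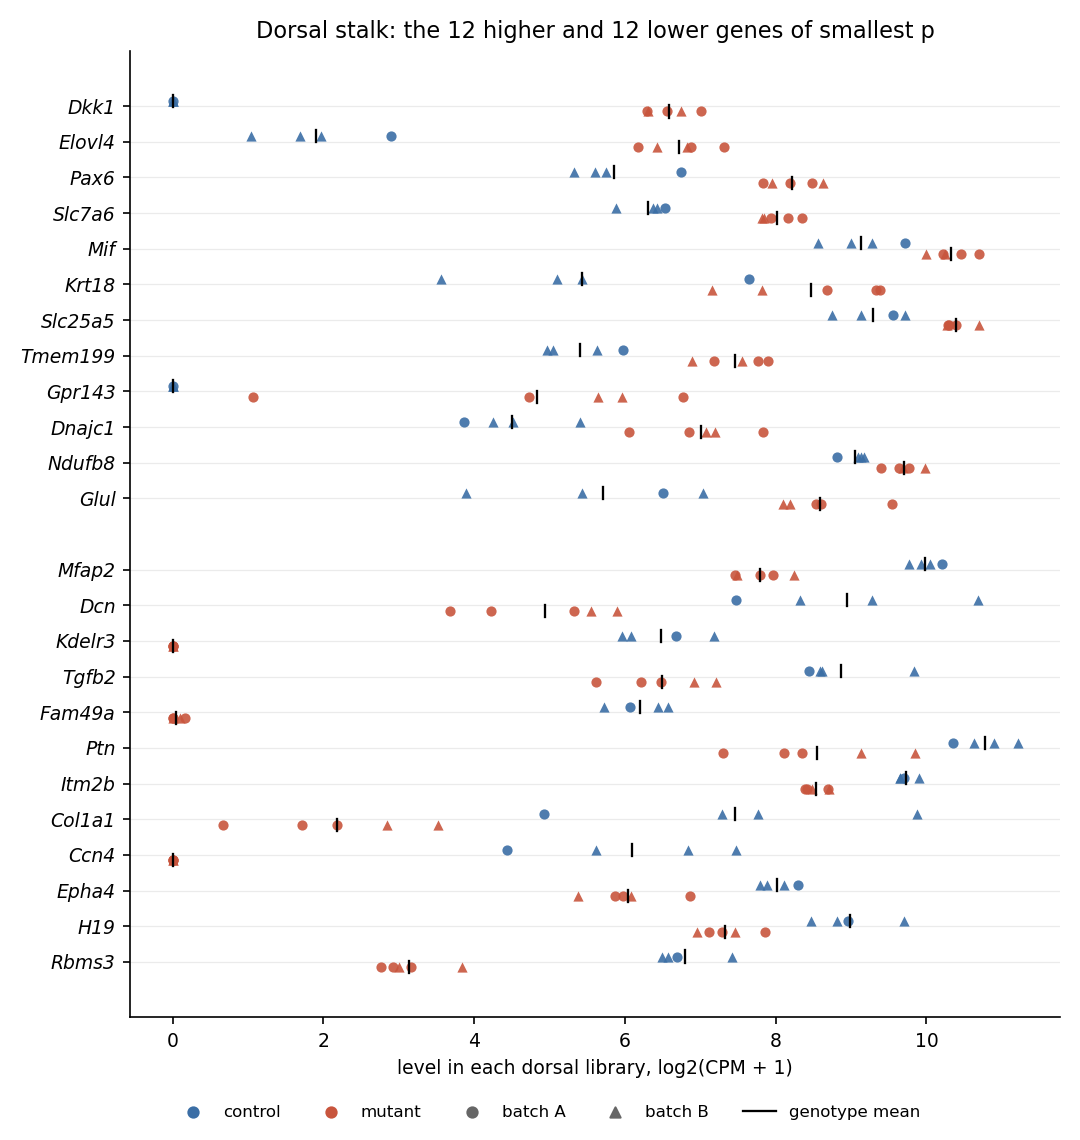
Level of the 12 higher (upper block) and 12 lower genes (lower block) with the smallest p, as log2(CPM + 1) in each dorsal library (x axis). Blue points are controls, red points mutants, circles batch A, triangles batch B, and black ticks genotype means. All genes but Krt18 show a gap between the colours, and Dkk1, Gpr143, Kdelr3, Fam49a and Ccn4 have a genotype at or next to 0.

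Of the tested genes 1518 had 0 counts in all libraries of a genotype. Among them, 6 genes (0.0372%) had 0 counts in all controls and at least 10 counts in every mutant. Besides Dkk1 they were Gpr143, the melanosomal receptor mutated in ocular albinism, Ak5, an adenylate kinase of neural tissue, the zinc finger genes Zfp472 and Zfp790, and the non-coding Gm9776. Gpr143 stood at 1.1, 25.4, 108, 48.8 and 61.4 CPM in the mutants, at least 284-fold above the floor of the controls (edgeR adjusted p 0.452). Ak5 stood at 8.99, 26.5, 2.47, 39.9 and 14.6 CPM in the dorsal mutants and at a mean of 18.1 CPM in ventral controls, so the control stalk also held it. In the other direction 11 genes (0.0681%) had at least 10 counts in every control and 0 in all mutants. They include Ccn4, a matricellular target of Wnt signalling, at 20.6, 113, 177 and 48 CPM in controls (at least 419-fold lower in mutants), Pthlh, parathyroid hormone-like hormone, at 36.2, 90.2, 3.48 and 28.5 CPM, and Edn3, an endothelin that acts on migrating neural crest cells, at 0.665, 64, 16.5 and 14.7 CPM. The elastin-associated gene Emilin3 stood at 5.53, 10.05, 215 and 4.58 CPM, most of it in control 3. Kdelr3, Card19, Frk, Gpr4, Prdm6, 2900052L18Rik and D430041D05Rik make up the rest. Of these 17 genes, Dkk1 alone passed the test. A gene at 0 in a dorsal genotype was not always at 0 in its other pieces. Zfp472 had means of 22.3 CPM in ventral and 19.3 CPM in axon controls. Card19 had means of 20.4 CPM in ventral and 15.3 CPM in axon mutants, and Edn3 had 4.18 and 29.1 CPM. Gpr143, by contrast, had means of 0.0155 CPM in ventral and 0 CPM in axon controls.

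Melanin and melanosome genes lay higher in the mutants. Of 16 tested, 14 had a positive log2 fold change, against 48.6% of all genes, and 2 had an unadjusted p below 0.05 (Gpr143 and Dct). Tyr, tyrosinase, which starts melanin synthesis, stood at 122, 0, 0 and 43.7 CPM in controls and 798, 668, 919.7, 612 and 427 CPM in mutants, with no overlap (edgeR p 0.0613). Dct, dopachrome tautomerase, whose promoter drives the Cre used here, stood at 304, 30.6, 1.95 and 171 CPM and 1175, 332, 924, 222 and 533 CPM (edgeR p 0.0375). Controls 1 and 4 held both genes, and control 3 held almost none of either. The list median was a log2 fold change of 2.16, against -0.04 over all genes. The mean level of the list, 0.58 to 4.48 on log2(CPM + 1) in controls, was 4.71 to 6.77 in mutants. Its summed level overlapped, at 43.6 to 5684 CPM in controls and 4391 to 14726 CPM in mutants. Without mutants 1 and 2 the list median was 2.40, and leaving out each library moved it between 1.46 and 3.61. In the ventral pieces the same genes had a median of 0.49. Pmel, the amyloid scaffold of the melanosome, overlapped between the genotypes, at 4117, 1173, 37.6 and 4433 CPM and 7752, 4290.3, 8752, 2032 and 4027 CPM (edgeR p 0.49).

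Stretches before a RefSeq start are shown for some of these genes, since most RNAs of the list lay higher. Of the 16 genes 11 had a start in the RefSeq table, and the word TCATGTG (M-box), known as a target of the pigment cell factor MITF, was found on either strand in the 250 bases before a start in 5 of them, Dct, Slc24a5, Trpm1, Tyr and Tyrp1. These 11 genes have 14 such windows, and a gene counted if any of its windows held the word. The word occurred in 3.25% of the 32851 windows of all genes, a share per window and not per gene. Capitals mark the word, which in Dct occurs once on each strand. Trpm1 has 2 annotated starts, and the first whose window holds the word is shown. Positions on GRCm38.p6 are chr7:87493513-87493762 (minus strand) for Tyr, chr4:80833963-80834212 (plus) for Tyrp1, chr14:118052247-118052496 (minus) for Dct and chr7:64153585-64153834 (plus) for Trpm1. The match describes the sequence and says nothing of which factor was bound in these cells.
Tyr: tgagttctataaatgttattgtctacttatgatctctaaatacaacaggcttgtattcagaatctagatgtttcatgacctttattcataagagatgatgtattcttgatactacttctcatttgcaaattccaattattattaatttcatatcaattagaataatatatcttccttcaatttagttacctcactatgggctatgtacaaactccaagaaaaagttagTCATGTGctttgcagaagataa
Tyrp1: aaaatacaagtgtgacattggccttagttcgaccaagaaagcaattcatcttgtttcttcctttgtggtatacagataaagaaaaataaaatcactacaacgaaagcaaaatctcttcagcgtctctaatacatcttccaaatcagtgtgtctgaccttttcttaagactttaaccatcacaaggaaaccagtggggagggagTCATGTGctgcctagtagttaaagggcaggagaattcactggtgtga
Dct: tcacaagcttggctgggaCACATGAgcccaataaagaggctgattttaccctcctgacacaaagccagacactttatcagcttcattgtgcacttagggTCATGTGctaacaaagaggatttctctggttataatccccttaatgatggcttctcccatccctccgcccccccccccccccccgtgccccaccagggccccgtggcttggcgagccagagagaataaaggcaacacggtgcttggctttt
Trpm1: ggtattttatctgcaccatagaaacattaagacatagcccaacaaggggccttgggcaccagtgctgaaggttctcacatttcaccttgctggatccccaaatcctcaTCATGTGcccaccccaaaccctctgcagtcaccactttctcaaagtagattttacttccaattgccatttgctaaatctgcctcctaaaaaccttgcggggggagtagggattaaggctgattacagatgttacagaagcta

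Tyrp1, a melanosomal oxidase, stood at 87.5, 65.9, 0 and 21 CPM in controls and 319.7, 100.3, 655, 13 and 187 CPM in mutants, and the genotypes overlapped (edgeR p 0.166). Trpm1, a cation channel of melanocytes, stood at 350.3, 377, 0 and 815 CPM and 2124, 782, 2085, 1281 and 1331 CPM (edgeR p 0.257). Of the 4 genes printed, Tyr alone had no overlap between genotypes.

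Genes of RPE function lay higher in part. Of 21 listed, 15 were tested, and 11 of these were higher, 4 with an unadjusted p under 0.05 (Krt18, Slc4a5, Ttr and Cst3), while Serpinf1 was lower. Over all genes 48.6% were higher and 2.68% were higher with such a p. Slc4a5, a bicarbonate cotransporter, had 5 counts in all controls together and stood at 123, 5.13, 5.94, 25.9 and 49.6 CPM in mutants (edgeR p 0.004). Ttr, transthyretin, the carrier of thyroid hormone and retinol-binding protein, stood at 94, 18.1, 0 and 14.7 CPM in controls and 537, 209, 408, 113 and 269 CPM in mutants, without overlap (edgeR p 0.0116). Serpinf1, which encodes the RPE-secreted PEDF but is also a fibroblast gene, lay the opposite way, at 11.9, 115, 388 and 34.7 CPM in controls and 0.0917, 0, 6.86, 0 and 0 CPM in mutants (edgeR p 0.0191). Rpe65 and Lrat, enzymes of the visual cycle that mark the mature RPE, had 0 counts in all 9 libraries.

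Transcription factors of the RPE did not share one direction. Of 12 tested, 5 were higher and 7 lower, with a median of -0.36 whose sign turned when control 4, mutant 4 or mutant 5 was left out. Otx2, a fate factor of RPE cells, stood at 48.3, 0, 0 and 64.3 CPM in controls and 248, 160.0, 369, 144 and 158 CPM in mutants, with no overlap (edgeR p 0.112). Mitf overlapped, at 173, 50.9, 0 and 156 CPM and 285, 124, 411, 117 and 187 CPM (edgeR p 0.415). The nuclear receptor gene Nr2f1 was lower (log2 fold change -0.77 ± 0.26 SE, edgeR p 0.0115), and mutant 5 overlapped the controls. Retinal progenitor and eye field genes likewise split 6 to 6 over 12 tested. Fgf15, made by retinal progenitors, stood at 1046 CPM in mutant 2 and at no more than 38.9 CPM in the others, and another gene overlaps 26% of its exonic bases.

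Genes of the stalk and of astrocyte progenitors lay lower. Of 17 tested, 13 had a negative log2 fold change, against 51.4% of all genes. Of these, 6 had an unadjusted p under 0.05, against 2.68% of all genes. They were the same 6 whose genotypes did not overlap, against 1.61% of all genes. Slc1a3 (GLAST), the glutamate transporter of radial glia and astrocytes, stood at 279, 526, 247 and 507 CPM in controls and 117, 87.6, 85.8, 117 and 173 CPM in mutants (log2 fold change -1.51 ± 0.31 SE, edgeR p 0.000408). Vim, the intermediate filament of neural progenitors and glia, stood at 1737, 1359.6, 2575 and 1344 CPM and 749, 489, 1035, 899.9 and 1020.2 CPM (edgeR p 0.00372). Zic1, a zinc finger factor of the dorsal neural tube and stalk, stood at 256, 239.6, 267 and 269 CPM in controls and 0, 26.6, 11.2, 51.9 and 33.4 CPM in mutants (edgeR p 0.0075). The gliogenic factors Nfib and Nfia had log2 fold changes of -1.39 and -1.80 (edgeR p 0.0157 and 0.0197), and Sox9, needed for the switch to glia, one of -0.82 ± 0.33 SE (edgeR p 0.0268). Pax2 stood at 38.8, 33.1, 0.826 and 39.2 CPM in controls and 0.0917, 1.79, 3.89, 3.17 and 5.78 CPM in mutants, and control 3 alone made the genotypes overlap (edgeR p 0.102). Not all members were lower. Gja1, connexin 43, had a log2 fold change of 0.56 and Id3 one of 0.34, and the fatty acid binding protein Fabp7 overlapped, at 221, 108, 162 and 175 CPM and 17.2, 86.7, 57.5, 139.7 and 204 CPM. Slc1a2 (GLT-1), the later astrocytic transporter, had 0 counts in controls and stood at 0.0917, 8.11, 0, 58.9 and 4.12 CPM in mutants, most of it in mutant 4. The list median was -0.98 in the dorsal and 0.10 in the ventral pieces. Gfap and Aldh1l1, markers of differentiated astrocytes, had 0 counts in all 9 libraries.

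Genes that start neuronal differentiation lay mostly higher, while genes of neurons split evenly. Of 17 proneural and neurogenic genes tested, 12 were higher, against 48.6% of all genes, and 9 of these had an unadjusted p under 0.05, against 2.68% of all genes. Atoh7, the factor of retinal ganglion cell competence, had 0 counts in controls and 24, 405, 1.77, 43 and 0 CPM in mutants (edgeR p 0.00342), so mutant 2 held most of it. Gadd45g, which marks cells that leave the cycle to differentiate, stood at 0, 0, 0 and 7.47 CPM and 106, 38.3, 96.1, 102 and 125 CPM, without overlap (edgeR p 0.0112). Hes6, an inhibitor of Hes1, stood at 37.6, 26.9, 34.5 and 0.269 CPM and 108, 252, 102, 129 and 82.3 CPM (edgeR p 0.0399), and Btg2, an antiproliferative gene of neurogenic divisions, at 25.7, 77.4, 0 and 32.8 CPM and 386, 281, 182, 206 and 199 CPM (edgeR p 0.0384). Neurog2 had 0 counts in controls and 0, 7.03, 8.55, 8.69 and 4.45 CPM in mutants (edgeR p 0.0218). The list median, 2.87, was 2.38 without mutants 1 and 2 and lay between 2.38 and 3.58 when each library was left out. The mean level of the list overlapped, at 1.76 to 3.58 on log2(CPM + 1) in controls and 3.35 to 5.32 in mutants. Its summed level overlapped too, at 406 to 2273 CPM in controls, highest in control 2, and 1135 to 2049 CPM in mutants. Of 19 neuron genes tested 10 were higher and 9 lower, none with an unadjusted p under 0.05, and Tubb3, the neuronal tubulin, stood at 0, 248.8, 152 and 0 CPM in controls and 73.8, 122, 0.0707, 104 and 35.2 CPM in mutants.

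The Notch pathway, which holds back such genes through its Hes effectors, showed no common direction over 20 tested genes, 10 higher and 10 lower. Hes1, the main repressor, stood at 259.7, 325, 283 and 187 CPM in controls and 78.4, 90.7, 70.6, 101 and 93.7 CPM in mutants (log2 fold change -1.52 ± 0.33 SE, edgeR p 0.000588), so each mutant lay below each control. Of the ligands, Dll1 had 1 count in all controls together and stood at 0.275, 21.3, 0, 18.6 and 9.17 CPM in mutants (edgeR p 0.0187; 21% of its exonic bases lie in another gene), and Dll3 at 0, 0, 0 and 0.538 CPM and 9.82, 6.44, 0.778, 19.7 and 4.05 CPM (edgeR p 0.0512). The receptors overlapped, with log2 fold changes of 1.03 for Notch1 and -0.08 for Notch2.

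**Figure D3:**
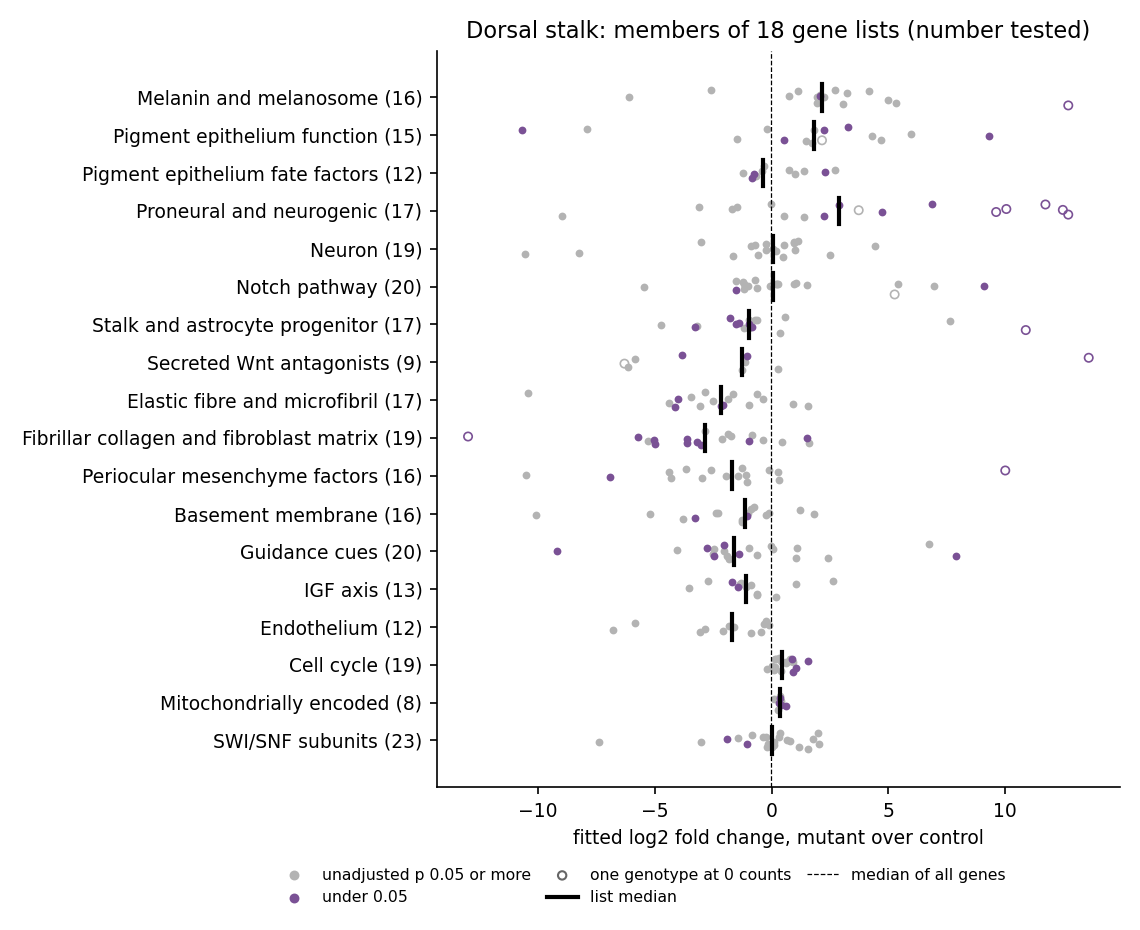
Fitted log2 fold changes (x axis, mutant over control) of the tested members of 18 gene lists (rows, number tested in parentheses). Each point is a gene, purple where the unadjusted p was under 0.05 and open where a genotype had 0 counts throughout, thick bars are list medians and the dashed line is the median of all genes. Medians lie to the right for melanin, RPE function and proneural genes and to the left for stalk, matrix, mesenchyme and guidance genes, while members of each list scatter to both sides except in the endothelium and mitochondrial lists.

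Most matrix genes lay lower. Of 17 elastic fibre and microfibril genes tested, 15 were lower, 4 with an unadjusted p under 0.05, against 51.4% and 2.68% of all genes. Mfap2 was the one called. Fbn1, fibrillin 1, the core of the microfibril that binds Mfap2, stood at 251, 182, 207 and 295 CPM in controls and 56, 20.9, 81.3, 65.1 and 46.3 CPM in mutants, without overlap (log2 fold change -2.10 ± 0.45 SE, edgeR p 0.000621; 20% of its exonic bases lie in another gene). Emilin1, a glycoprotein of the elastic fibre surface, and Lox, the oxidase that cross-links elastin and collagen, had log2 fold changes of -4.13 and -4.01 (edgeR p 0.00206 and 0.0223) with overlap through control 1. Fbn2 overlapped, at 139, 433, 850.0 and 171 CPM and 355, 153, 227, 276 and 194 CPM. The list median was -2.16, between -2.26 and -2.01 when each library was left out, and -0.35 in the ventral pieces.

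Of 19 fibrillar collagen and fibroblast matrix genes tested, 16 were lower and 9 of these had an unadjusted p under 0.05, against 51.4% and 2.68% of all genes. Col1a1, the chain of type I collagen, stood at 29.4, 216, 938 and 156 CPM in controls and 2.29, 0.596, 3.53, 6.21 and 10.4 CPM in mutants (log2 fold change -5.05 ± 0.84 SE). Col3a1 stood at 421, 1143, 4263 and 493 CPM and 3.85, 0, 5.51, 61.9 and 81.5 CPM (edgeR p 0.00115), and Col6a1 at 0, 159.7, 429 and 25.2 CPM in controls with 0 counts in every mutant. Control 3 held the highest level of each of these collagens and control 1 the lowest. Ogn lay the other way without overlap. This gene of osteoglycin, a small leucine-rich proteoglycan, stood at 84.9, 23.1, 38.2 and 29.5 CPM in controls and 172, 124, 361, 89.6 and 86.5 CPM in mutants (edgeR p 0.00797). Sparc, a collagen-binding protein also made by glia, stood at 1578, 1997, 1957 and 2107 CPM and 1261, 618, 1235, 643 and 1091 CPM (log2 fold change -0.97 ± 0.26 SE, edgeR p 0.00271). Of 16 basement membrane genes 14 were lower, among them Col18a1 at 273, 315, 409.8 and 432 CPM and 238, 71.8, 137, 187 and 143 CPM (edgeR p 0.0118).

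Markers of cells around the stalk lay lower in part. Transcription factors and receptors of the periocular mesenchyme, the neural crest and mesodermal tissue that wraps the eye, had 16 of 22 members tested, and 13 of the 16 were lower. Their summed level ran from 245 to 1180.4 CPM in controls and from 33.4 to 248 CPM in mutants. Pdgfra, a receptor of mesenchymal cells and glial precursors, stood at 107, 92.5, 312 and 43.7 CPM in controls and 0, 0, 0, 0.483 and 22.4 CPM in mutants (edgeR p 0.00552). It was the 1 lower member with an unadjusted p under 0.05. The 1 higher member with such a p was Alx1, with log2 fold changes of 4.72 to 10.6 when each library was left out. Of 12 endothelial genes 12 were lower, 0 with an unadjusted p below 0.05, and their sums overlapped, 319 to 515 CPM in controls and 64.3 to 739 CPM in mutants. Of 8 mural genes 5 were lower and 3 higher. Pdgfrb, the pericyte receptor, stood at 109, 64.4, 65.2 and 48.5 CPM in controls and 0.734, 0.894, 16, 9.24 and 1.86 CPM in mutants (edgeR p 0.0134). Rgs5 lay the other way, with log2 fold changes of 2.20 to 9.75 when each library was left out. The melanoblasts and glia of the neural crest, which also make pigment, had 6 of 8 members tested. Their defining factor Sox10 was counted at 20.6 CPM in control 2, at 0.208 CPM in control 1 and at 0 in the other libraries, all mutants included, and their summed level was 96.9 to 347 CPM in controls and 0 to 65.6 CPM in mutants. Erythroid sums were 774 to 24385 CPM in controls, highest in control 3, and 176 to 7288 CPM in mutants. Macrophage sums reached no more than 190.3 CPM and muscle sums no more than 597 CPM in any library. The part of these cells in the matrix values was not tested. Without control 3 the edgeR p before adjustment was 4.49e-05 for Dcn, which was not called with or without it.

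**Figure D4:**
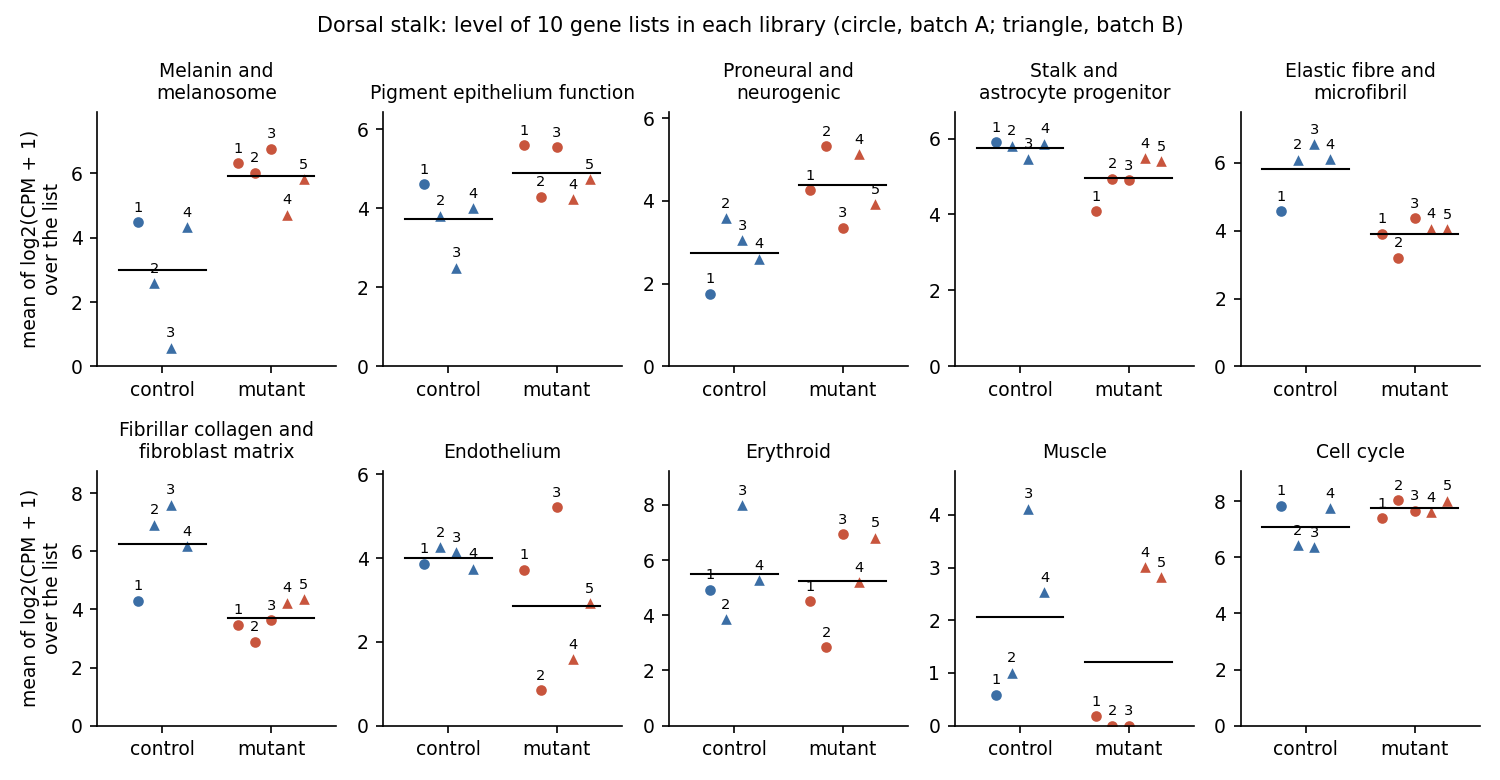
Mean of log2(CPM + 1) over the tested members of 10 gene lists in each dorsal library (y axes), with controls in blue and mutants in red. Numbers are replicate numbers, circles batch A, triangles batch B, and lines genotype means. Melanin genes in mutants lie above and elastic fibre genes below all controls, while all other lists drawn overlap between genotypes. Control 3 stands apart in the melanin, erythroid and muscle lists.

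Secreted inhibitors of Wnt signalling split around Dkk1. Of 9 tested, 7 were lower, and 2 of these had an unadjusted p under 0.05. Wif1, which binds Wnt ligands, stood at 385, 534, 350.2 and 543 CPM in controls and 119, 107, 133, 178 and 426 CPM in mutants, where mutant 5 alone reached the controls (edgeR p 0.00759). Dkk2 stood at 0.166, 2.85, 173 and 25.5 CPM and 0, 0, 0, 3.52 and 7.24 CPM, most of it in control 3. Of 13 Wnt target and feedback genes 9 were lower. Axin2, the common reporter of canonical signalling, overlapped, at 0.208, 20.8, 0.059 and 28.6 CPM and 43.6, 9.84, 27.1, 4.55 and 3.59 CPM (edgeR p 0.868). Znrf3, a ubiquitin ligase that removes Wnt receptors, had a log2 fold change of -1.65 ± 0.73 SE (edgeR p 0.0428), and Lgr5, its partner at the membrane, had 1 count in all controls together and stood at 16.8, 29.4, 0, 6.48 and 12.6 CPM in mutants (edgeR p 0.0176). The median of this list, -0.84, changed sign without mutant 4 or mutant 5.

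Of 22 TGF-beta and BMP genes tested 13 were lower and 9 higher, and Tgfb2 (lower) and Fst (higher) had an unadjusted p below 0.05. Fst, follistatin, which binds and blocks activins, had 3 counts in all controls together and stood at 49.6, 28.7, 1.2, 38.1 and 53.6 CPM in mutants (edgeR p 0.00247). Axon guidance cues and receptors were lower in 14 of 20 tested, against 51.4% of all genes, and 5 of these had an unadjusted p below 0.05, against 2.68% of all genes. Slit2, the repellent that keeps ganglion cell axons in the stalk, stood at 338, 319.9, 300.1 and 271 CPM in controls and 99.8, 76.1, 48.9, 133 and 177 CPM in mutants (log2 fold change -1.42 ± 0.35 SE, edgeR p 0.00166). Ntn1, netrin 1, which guides axons out at the optic disc, stood at 204, 280.3, 157 and 545 CPM and 1.47, 93.7, 33.6, 68.1 and 97.8 CPM (edgeR p 0.0281). Sema3a stood at 63.8, 6.7, 189 and 23.4 CPM in controls and 0, 0, 0, 0.828 and 0 CPM in mutants (edgeR p 0.001). These 3 cues showed no overlap between genotypes. Among Eph receptors and ephrins, 3 of 15 were lower at this level, Epha4, Epha3 and Efnb1, while Ephb2 was higher without overlap (edgeR p 0.0939).

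Of 13 genes of the IGF axis 10 were lower, 2 of them (H19 and Igfbp5) with an unadjusted p under 0.05. Igf2, which shares its imprinted locus with H19, stood at no more than 3.54 CPM in any library, and other genes overlap 65% of its exonic bases. Dhrs3, a reductase that lowers retinoic acid levels, was the one of 16 retinoic acid genes with an unadjusted p under 0.05, at 192, 153, 149 and 56.7 CPM in controls and 2.29, 0.0596, 0.0707, 0 and 13.4 CPM in mutants (edgeR p 0.00476). Crabp2, which carries retinoic acid to the nucleus, overlapped, at 41.6, 29.7, 123 and 104 CPM and 293, 375, 236, 85.4 and 146 CPM. Besides Ptn, 2 of 10 genes around midkine and pleiotrophin were lower with an unadjusted p below 0.05, the receptor genes Alk and Lrp1. Of 15 FGF genes 12 were lower, and Fgf15, which was higher, alone had an unadjusted p below 0.05. In the hedgehog list (11 tested), the p53 list (11), the G1 cyclin list (14), the matrix protease list (16) and the stress list (12), 0 genes had one.

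Proliferation genes lay slightly higher. Of 19 cell cycle genes tested 17 were higher and 4 of these had an unadjusted p under 0.05, against 48.6% and 2.68% of all genes. Birc5, survivin, of the chromosomal passenger complex, stood at 373, 261, 194 and 369 CPM in controls and 549, 608, 591, 475 and 617 CPM in mutants (log2 fold change 0.88 ± 0.24 SE, edgeR p 0.00361). Mcm3, of the replicative helicase, stood at 128, 8.56, 59.8 and 121 CPM and 256, 199, 323, 229 and 229 CPM (edgeR p 0.0255). Controls 2 and 3 held the lowest summed levels of the list, and the genotypes overlapped in its mean. The list median was 0.43 in the dorsal and 0.34 in the ventral pieces. Mitochondrially encoded genes were higher in 8 of 8 tested, 4 with an unadjusted p under 0.05, with a median of 0.36, and took 4.43% to 5.63% of counts in controls and 4.19% to 7.63% in mutants. Another 5 of the 13 mitochondrial genes, among them mt-Co2 and mt-Co3, had at most 1 count in all 9 libraries.

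Other SWI/SNF subunits had no common direction, with 12 higher and 11 lower of 23 tested. Smarcc2 (Baf170), the paralogue of Smarcc1 that shares its scaffold place, stood at 138, 146, 76.2 and 74.6 CPM in controls and 41.6, 7.09, 45.2, 23.7 and 32.5 CPM in mutants, without overlap (log2 fold change -1.92 ± 0.71 SE, edgeR p 0.019). Smarca4 (Brg1), an ATPase of the complex, stood at 182, 433, 167 and 229 CPM and 318, 205, 168, 340.2 and 177 CPM (edgeR p 0.792). Brd9, a subunit of the non-canonical complex, had a log2 fold change of -1.08 (edgeR p 0.0399).

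Whether the dorsal genotype effect differed from that in the other pieces of the same embryos was tested with edgeR, with the embryo as a block. Against the ventral pieces the test called 0 of 16329 genes (0%), while before adjustment 445 genes fell below a p of 0.05 (2.73%). The smallest p belonged to Ptn, whose ventral levels were 1645, 2102, 2033 and 2206 CPM in controls and 1558, 1380.2, 2611, 3296 and 3362 CPM in mutants. Its dorsal minus ventral log2 effect was -2.39 ± 0.31 SE (edgeR adjusted p 0.112). Vim (-0.95 ± 0.13 SE, adjusted p 0.112), Wif1 (-2.36 ± 0.35 SE, adjusted p 0.118) and Ppic, a cyclophilin of the secretory pathway (-1.55 ± 0.25 SE, adjusted p 0.189), followed and did not pass either. For Mfap2 the value was -1.61 ± 0.31 SE (adjusted p 0.403), and Dkk1, with 0 counts in most libraries of both pieces, gave no usable estimate.

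Against the axon pieces the test called 2 of 16292 genes (0.0123%), while before adjustment 510 genes fell below a p of 0.05 (3.13%). Ptn had a dorsal minus axon log2 effect of -2.73 ± 0.21 SE (edgeR adjusted p 0.00027), with axon levels of 1159, 2159, 2309.9 and 2328 CPM in controls and 1408, 2529.7, 2495, 4177 and 4104 CPM in mutants. Sparc had one of -1.91 ± 0.24 SE (edgeR adjusted p 0.0253), with axon levels of 1451, 1207, 1055 and 1553 CPM in controls and 3128, 2824, 2559.6, 1332 and 2725 CPM in mutants. For both genes the dorsal mutants lay below the dorsal controls while the mutant mean in the axon pieces was above that of the controls. With mutant 1, mutant 3, mutant 5, control 2, control 3 or control 4 left out in turn, 1 gene was called in place of 2.

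**Figure D5:**
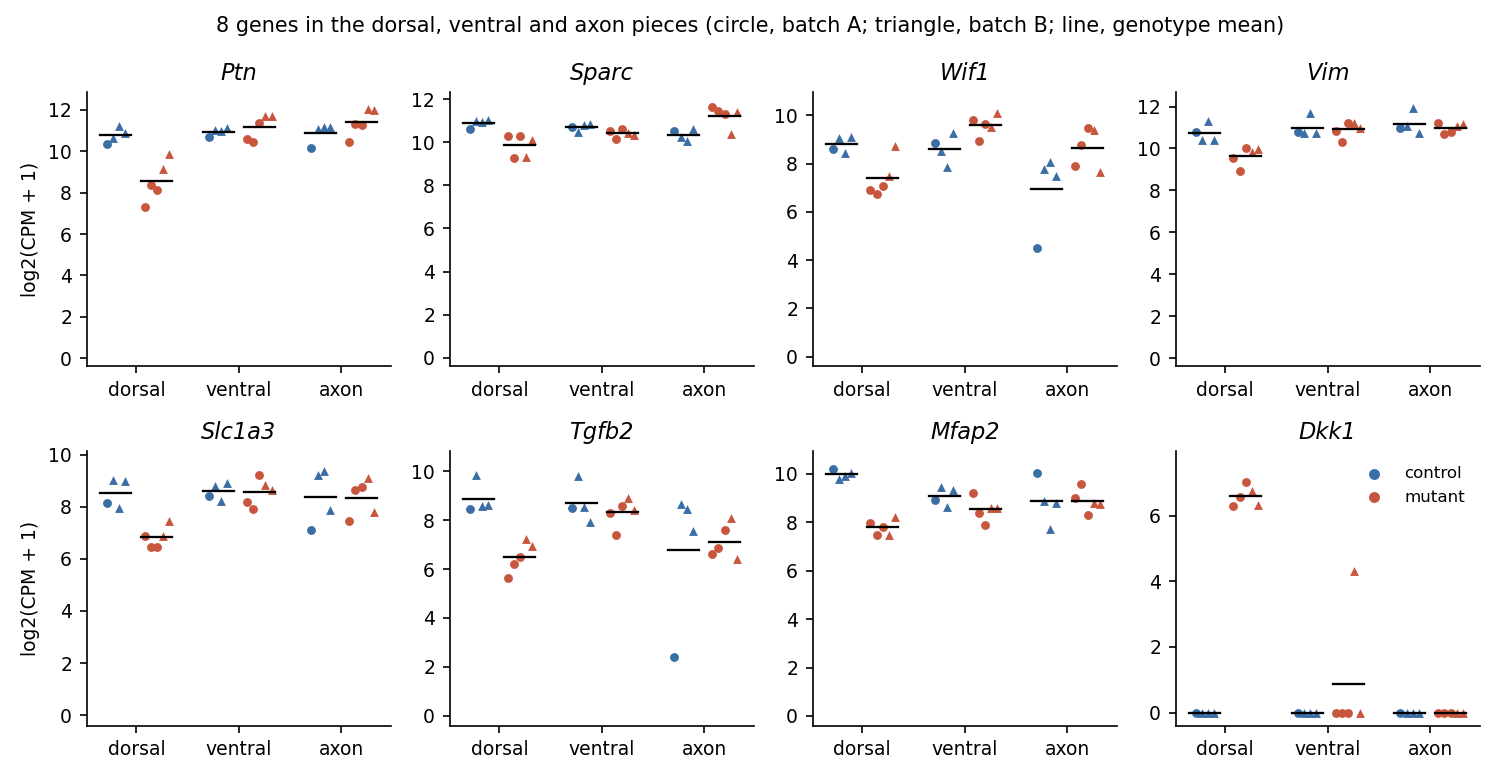
Level of 8 genes as log2(CPM + 1) (y axes) in the dorsal, ventral and axon pieces, controls in blue and mutants in red, circles batch A, triangles batch B, lines genotype means. Dorsal mutants lie apart from dorsal controls for each gene but Wif1, whose mutant 5 overlaps, while ventral and axon points of the genotypes mostly overlap, and Dkk1 is counted outside the dorsal mutants in 1 ventral mutant.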

How the data were processed

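Optic stalk pieces were cut by laser microdissection from E14 cryosections, and their RNA was amplified, made into Nextera XT libraries and sequenced single-end. Per the study's methods, the authors aligned the reads to mm10 with STAR through Seq2Science and counted them per gene with HTSeq, and they deposited 1 table of raw counts with 27 columns, used here as given. The annotation release, strand setting and versions are not given in the sources used here. Gene names and positions follow GENCODE M21, to which 55227 of 55487 IDs matched, and the stretches before transcription starts follow RefSeq on GRCm38.p6.

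Genes counted over 10 times in 3 or more of the 27 libraries, and at least once in a dorsal one, were tested on the 9 dorsal libraries with the quasi-likelihood test of edgeR 4.0.16 (R 4.3.3, TMM scaling, robust), with batch and genotype as terms. This replaces DESeq2, which the study used and which was run as an alternative (version 1.42.0) beside limma 3.58.1. Regional differences were tested on 18 libraries with the embryo as a block. p-values were adjusted after Benjamini-Hochberg over all genes tested, and SE are those of the fitted log2 fold changes. Single genes were also tested by an exact permutation test of mean log2(CPM + 1), two-sided. The code was tested on simulated data. Folds given as "at least" compare the higher mean with 3 counts per library of the genotype at 0.

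Genes are named as the 12 of smallest p in each direction, as members of the gene lists, as genes with 0 counts throughout a genotype and at least 10 in every library of the other, and as the 5 of smallest p in each regional test. Which list members are described was chosen after their values were seen. The members and lists were chosen with earlier results of these data known. Some genes are not reported here.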

Additional observations from a re-analysis of the deposited data

Results flagged for a closer look

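Slc25a5 stood at 1658 CPM in dorsal mutant 4, far from the other mutants, which lay between 1234 and 1337 CPM, and all 5 lay above the controls. Tgfb2 stood at 915.6 CPM in dorsal control 2, far from the other controls, which lay between 345 and 391 CPM, and all 4 lay above the mutants. These 2 were the only ones to stand apart in this way among 50 genotype groups examined, where chance sets apart about 1 in 20.

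The genotype effect on Ptn differed between the dorsal and the axon pieces by -2.73 on the log2 scale, and that on Sparc by -1.91, as tested with edgeR with the embryo as a block (adjusted p 0.00027 and 0.0253).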

How the results depend on the processing

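The number of called genes (2, with 864 at an unadjusted p below 0.05) depended on the tool and the samples. With RLE scaling it was 2 (865), with DESeq2 532 (1802), with limma voom 41 (1346), with the newer edgeR method 40 (1358), with no count filter 101 (983), with a stricter count filter 1 (463), with no batch term 8 (1783), in batch B alone 0 (533), without mutants 1 and 2 0 (549), and with all 27 libraries in 1 fit 2 (1223), 1 of them shared. Leaving out 1 library gave 0 to 2 called genes and 555 to 819 genes at an unadjusted p below 0.05. No gene was called without control 1 or without mutant 1, 2, 3 or 4, and 1 gene without control 2 or mutant 5. The cause was not tested. Of 40 values of the adjusted p of Dkk1 and Mfap2 under these settings, 19 stayed below 0.05 and 21 did not. Of 494 list medians under other settings 412 moved by less than the spread between libraries and 82 by more. Called differences between the dorsal and the ventral effect numbered 0 without each embryo in turn and 1 with no embryo block on all 27 libraries. Those between the dorsal and the axon effect numbered 1 to 2 without each embryo in turn and 4 with no embryo block.

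With the replicate number as a block the count was 0 (445). Deviations of libraries with the same number correlated at -0.02, -0.04, -0.03 and -0.04, and those with different numbers at -0.03 to 0.06. Values this near to 0 show no likeness by number, but they cannot decide whether the numbers pair the embryos. With 4 against 5 libraries of amplified RNA, in which a gene can be uncounted in 1 library and well counted in the next, small changes of genes with low counts were not detectable.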
